A study of Mus musculus with 24 samples.

Results

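The genes described here are 41 genes of DNA replication and mitosis, taken as every probe of the deposited intensity table that is listed under one of their symbols. Of the 41 symbols, 37 had a probe, and they had 64 of the 25697 probes between them. After a filter that asks for detection on at least 3 of 24 arrays, 49 of these probes and 30 of the genes were tested, among 12552 genes in all. The RNA came from mammary glands of female mice and was hybridised to Illumina bead arrays, with 1 array for each sample. Null mice carry the LacZ allele of Snai2 on both chromosomes (SNAI2 LacZ/LacZ), and WT mice are SNAI2+/+. Cells sorted on CD49f and Epcam into a basal, a luminal and a stromal fraction, and cells left unsorted, were taken in each genotype, so that there were 8 groups of 3 arrays: null basal, WT basal, null luminal, WT luminal, null stromal, WT stromal, null unsorted and WT unsorted. The labels give no age and name no individual animals, and a p-value here therefore rests on a spread between samples that may be technical.

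Before a cell copies its DNA, Cdc6 and Cdt1 load a ring-shaped helicase made of the Mcm proteins onto replication origins, and cyclin-dependent kinases then start the copying. Enzymes such as ribonucleotide reductase and thymidylate synthase supply the nucleotides. Later in the cycle cyclin A and B kinases, Aurora and Polo kinases and their partners condense the chromosomes, build the spindle, separate the sister chromatids and divide the cell. Most of these genes are transcribed in waves, the replication genes under E2F factors and the mitotic genes under B-Myb, FoxM1 and the DREAM complex, so their RNA levels are widely used as a reading of how many cells are dividing. Snai2, also called Slug, is a zinc finger repressor of basal mammary cells.

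Snai2 and Epcam themselves are not analysed here, since 0 probes of the table used carry either symbol, so the genotype labels were not checked by the targeted gene. Between 12634 and 15825 probes were detected on an array, and the median raw intensity of an array lay between 93.6 and 144. All 7 basal markers (keratin and smooth muscle genes and Trp63) were higher in basal than in luminal cells in null and in WT mice. All 6 fibroblast markers were lower in basal than in stromal cells in both. The mean of 7 luminal markers was 9.61, 9.99 and 9.86 in null luminal and 10.01, 9.77 and 9.89 in WT luminal cells. On basal arrays of both genotypes that mean lay between 7.38 and 8.56. Of these luminal markers, Gata3 did not separate WT luminal (7.32) from WT basal cells (7.34). An unlabelled split ran through the arrays: the third principal component, with 9.65% of the variance, had 11 arrays on its positive side, namely the WT replicates 1 and 2 in all populations with replicate 1 of null basal, luminal and stromal cells, and the other 13 arrays, with all 3 null unsorted ones, on its negative side. The same 24 of 24 arrays fell on the same sides when 121 cell cycle genes were left out. Since the positive side holds most WT sorted arrays and the negative side most null ones, values within each side are given beside the comparisons of genotypes.

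Taken as 1 mean over the 30 tested genes, the level was highest in null basal cells, at 5.90, 6.65 and 6.86 log2 intensity in replicates 1, 2 and 3, against 6.0, 5.88 and 6.52 in WT basal cells. It was 5.95, 6.18 and 6.10 in null luminal cells and 5.77, 5.62 and 6.02 in WT luminal cells. Stromal cells had 5.60, 5.64 and 5.97 in null and 5.65, 5.68 and 5.70 in WT mice, and unsorted cells 5.75, 6.54 and 6.16 in null and 5.73, 5.73 and 6.11 in WT mice. The null and WT ranges overlapped in basal, luminal and unsorted cells, and null stromal arrays lay on both sides of the WT stromal ones. The array means of all 12552 genes lay between 6.64 and 6.72 after quantile normalization, which makes them nearly equal by construction. Ordered by group mean, null basal (6.47 ± 0.50, SD, n = 3 as for every group) was followed by null unsorted (6.15 ± 0.40), WT basal (6.13 ± 0.34), null luminal (6.08 ± 0.12), WT unsorted (5.86 ± 0.22), WT luminal (5.80 ± 0.20), null stromal (5.73 ± 0.20) and WT stromal cells (5.68 ± 0.03). Null luminal and WT unsorted cells lay about 1 SD apart, and the other neighbours in this order less than the larger of their SDs. In bulk RNA of this kind, fewer dividing cells and less RNA per dividing cell cannot be told apart.

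**Figure D1:**
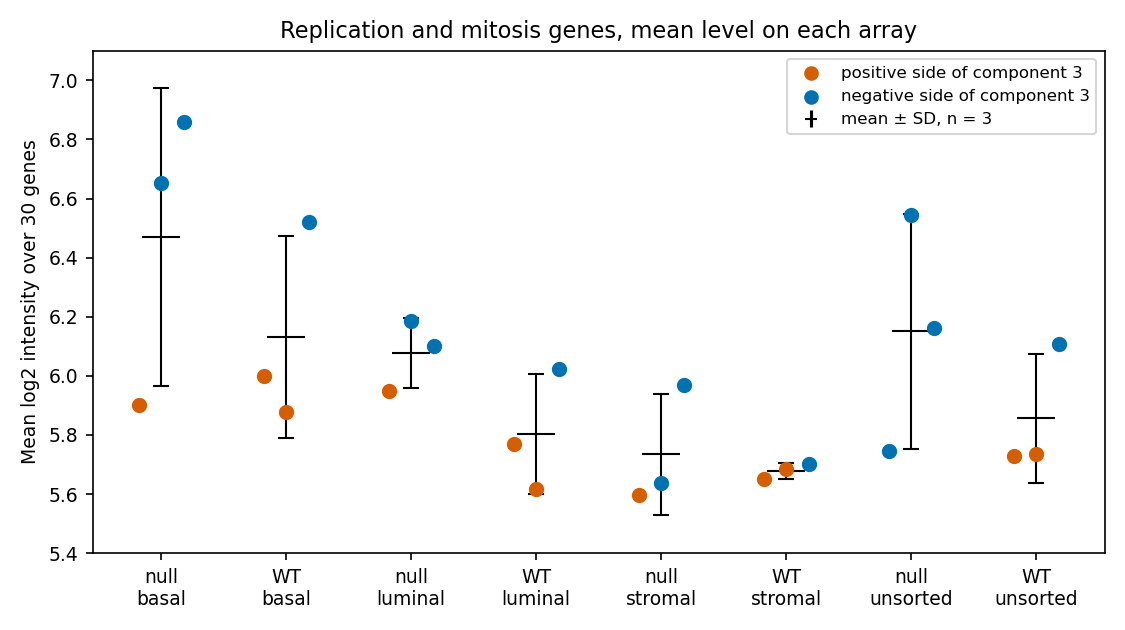
Mean log2 intensity over the 30 tested genes (vertical axis) on each of the 24 arrays, by group, with replicates 1 to 3 from left to right; bars are the group mean ± SD (n = 3) and colours the side of the unlabelled split (component 3). The 2 null basal arrays of the negative side, at 6.65 and 6.86, and WT basal replicate 3, at 6.52, lie above every stromal array.

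Individual arrays stood out within groups. Null basal replicate 1 was the highest array of its group for 0 of the 30 genes, while it was highest for 40.4% of all genes, and replicate 3 was highest for 22 and replicate 2 for 8. In WT basal cells replicate 3 was highest for 19 of 30 genes (36.9% of all genes), in WT luminal cells replicate 3 for 20 (34.9%), in WT unsorted cells replicate 3 for 21 (39%), and in null unsorted cells replicate 2 for 22 (33.9%). All of these high arrays lie on the negative side of the split, which holds all 3 null unsorted arrays, so that group could give no other outcome. The remaining groups were more even. Replicates 1, 2 and 3 were highest for 9, 9 and 12 genes in null luminal cells. The numbers were 10, 6 and 14 in null stromal and 11, 7 and 12 in WT stromal cells. Within basal cells the negative-side arrays had mean levels of 6.65 and 6.86 (null) and 6.52 (WT), and the positive-side arrays 5.90 (null) and 6.0 and 5.88 (WT). What the split stands for was not tested.

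Detection set a floor for many of these genes, whose levels here are those of the brightest tested probe unless another is named. On all 3 arrays of the group, 20 of the 30 genes were detected in null basal cells, 15 in WT basal, 18 in null luminal, 19 in WT luminal, 13 in null stromal, 13 in WT stromal, 17 in null unsorted and 20 in WT unsorted cells. A further 7 symbols had a probe that failed the filter: the mitotic cyclin genes Ccnb1 and Ccnb2, the cyclin E gene Ccne1, the spindle checkpoint genes Bub1 and Bub1b, the ubiquitin-conjugating enzyme gene Ube2c and the kinetochore motor gene Cenpe. The probes of Ccnb2 and Bub1 were detected on 0 of 24 arrays. The brighter of 2 probes of Ccnb1 was detected on 2 arrays, both of null basal cells, where its mean was 5.01, against 4.41 in WT basal cells and between 4.32 and 4.46 in the 6 other groups. Ube2c and Cenpe were each detected on 1 array, again of null basal cells, and Bub1b and Ccne1 on 2 arrays of different groups. The proliferation marker Mki67, the Aurora B kinase gene Aurkb, the GINS subunit gene Gins2 and the kinesin gene Kif20a were not analysed here.

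Among the 6 helicase genes, Mcm6 set epithelial cells apart from stroma most widely. Its level was 7.73, 8.73 and 8.74 log2 intensity in null basal, 8.73, 8.38 and 8.29 in null luminal and 6.54, 5.25 and 6.52 in null stromal cells. In WT mice it was 7.56, 7.71 and 7.98 in basal, 8.03, 7.79 and 8.63 in luminal and 6.68, 7.41 and 5.46 in stromal cells. All basal and luminal arrays of both genotypes therefore lay above all stromal arrays of their genotype. Unsorted cells had 7.90, 8.72 and 8.44 in null and 7.56, 7.40 and 8.01 in WT mice.

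Mcm4 was bright on every array and highest in basal cells, with 10.23, 10.24 and 10.46 in null basal, 9.78, 9.59 and 9.46 in null luminal and 9.60, 8.84 and 9.33 in null stromal cells. The WT values were 9.90, 10.20 and 9.74 in basal, 9.66, 9.71 and 9.11 in luminal and 9.44, 9.70 and 9.30 in stromal cells. In both genotypes the basal arrays lay above the luminal and stromal ones. Mcm2 had 6.15, 5.68 and 6.44 in WT luminal cells, all above the 5.12, 4.75 and 4.44 of WT stromal cells, and 5.38, 6.64 and 6.08 in null luminal cells, which overlapped the 5.85, 4.65 and 5.04 of null stromal cells. Mcm5 was uneven within groups: null unsorted cells ranged between 5.67 and 9.03 and WT luminal cells between 6.30 and 8.33. In basal cells Mcm5 was 8.65, 9.16 and 9.19 in null and 8.07, 7.51 and 8.49 in WT mice, groups that did not overlap. Mcm7 likewise had 4.98, 5.80 and 5.66 in null basal cells and 4.71, 4.70 and 4.83 in WT basal cells, where it was detected on 0 arrays. In stromal cells Mcm7 was 5.05, 5.11 and 5.30 in null and 4.51, 4.45 and 4.43 in WT mice, detected on 3 and 0 arrays. Unsorted cells went the other way for Mcm7, with means of 4.78 in null and 5.25 in WT mice, detected on 2 arrays in each. Mcm3 was dim, between 4.40 and 6.27 over all arrays, and its groups overlapped.

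The licensing factor genes Cdc6 and Cdt1 varied more among replicates than among groups. Cdt1 was 6.06, 7.52 and 8.05 in null basal and 6.68, 7.31 and 8.23 in WT basal cells, and its group means lay between 6.64 (WT stromal) and 7.48 (null unsorted). Cdc6 had group means between 5.44 and 5.83.

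By their brightest probes, all 5 genes of the replication fork and of nucleotide supply had their highest group mean in basal cells, of null or of WT mice. Pcna, the sliding clamp of the DNA polymerases, was 8.75, 9.33 and 9.36 in null basal and 9.46, 8.90 and 9.41 in WT basal cells, against 8.36, 8.95 and 8.85 in null luminal and 8.39, 7.98 and 8.78 in WT luminal cells. The WT basal arrays all lay above the WT luminal ones, and the null groups overlapped. Rrm2, the regulated small subunit of ribonucleotide reductase, had 6.46, 8.46 and 8.37 in null basal and 6.70, 6.69 and 8.26 in WT basal cells. Its stromal values were 4.62, 6.41 and 6.21 in null and 5.82, 5.23 and 6.51 in WT mice, so the basal and stromal groups did not overlap in either genotype. Rrm1, the large subunit, was steadier, with group means between 8.22 and 8.89. Tyms, thymidylate synthase, was 5.26, 6.99 and 7.32 in null basal and 5.91, 5.52 and 6.91 in WT basal cells, and Tk1, thymidine kinase, 4.57, 5.63 and 6.01 against 4.96, 4.55 and 4.74. In Tyms replicate 1 was the lowest null basal array, as it was in Tk1. Another tested probe of Tk1 was highest in null luminal cells (mean 5.11), with 4.86 in null basal and 5.02 in WT basal cells. The tested probes of Tk1 therefore disagree.

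Among cyclin genes, Ccna2, the cyclin of S and G2 phase, was detected on all 3 arrays of a single group, null basal cells, at 5.16, 5.81 and 5.88. It was 5.17, 4.50 and 4.96 in WT basal cells and was detected on 0 of 12 sorted luminal and stromal arrays, where it lay between 4.35 and 4.69. In unsorted cells Ccna2 was 4.38, 5.66 and 4.71 in null and 4.60, 4.46 and 4.98 in WT mice. Ccne2, a cyclin of S phase entry, stayed between 4.42 and 5.35 on every array. Cks2, a small subunit of cyclin-dependent kinases, was 7.54, 7.15 and 7.41 in null unsorted and 5.57, 5.93 and 7.30 in WT unsorted cells, and in each sorted group of both genotypes replicate 1 or 2 was its lowest array. Of the transcription factor genes, Foxm1 was 5.60, 6.96 and 7.08 in null basal and 6.55, 5.74 and 7.32 in WT basal cells. Mybl2, which encodes B-Myb, had group means between 5.23 and 5.84 with its brightest probe. A dimmer probe of Mybl2 had means of 6.34 in null basal, 4.87 in null luminal and 4.40 in null stromal cells, so the tested probes of this gene disagree.

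The chromosomal passenger gene Birc5, which encodes survivin, was 4.89, 6.40 and 5.89 in null basal and 5.43, 4.89 and 5.43 in WT basal cells, and its brightest probe was detected on 0 of 6 stromal arrays, where it lay between 4.37 and 4.70. Another Birc5 probe was detected on 1 null stromal array. Cdca8, which encodes borealin of the same complex, was detected on 5 of 24 arrays. The kinase genes Aurka and Plk1 had single high arrays: Aurka was 6.62 in WT basal replicate 2 and Plk1 6.45 in null stromal replicate 3, each with both other arrays of its group lower by more than 1 log2 unit. Top2a, the topoisomerase that untangles sister chromatids, was 4.73, 5.46 and 5.94 in null basal and 4.79, 4.57 and 5.49 in WT basal cells, and 6.26 in null unsorted replicate 2. Cenpa, the histone H3 variant of centromeres, followed another order: it was highest in unsorted cells, with 6.83, 5.98 and 6.64 in null and 6.48, 7.0 and 6.55 in WT mice.

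The widest range over the 24 arrays was that of Prc1, which crosslinks the microtubules of the spindle midzone for cytokinesis. Prc1 was 6.66, 8.24 and 7.83 in null basal, 5.78, 6.55 and 7.11 in null luminal and 4.57, 4.42 and 6.0 in null stromal cells. In WT mice it was 7.09, 5.25 and 6.78 in basal, 5.33, 5.0 and 5.53 in luminal and 5.33, 4.35 and 4.63 in stromal cells. Null luminal arrays all lay above the WT luminal ones, as did the null unsorted arrays (6.67, 7.01 and 6.70) above the WT unsorted ones (5.75, 5.15 and 6.24), and the basal groups overlapped. Tpx2, an activator of Aurora A at the spindle, was 4.44, 6.01 and 6.15 in null basal and 4.50, 4.39 and 5.09 in WT basal cells. Kif11, the motor that pushes spindle poles apart, and Nusap1, a microtubule-binding protein gene, had group means between 5.76 and 6.36 and between 4.71 and 5.20. Cdc20, the activator of the anaphase-promoting complex, reached 7.12 in WT basal replicate 3 against 4.66 in replicate 2, and Cdca3, which takes part in mitotic entry, was 5.16, 5.79 and 5.86 in null basal and 4.87, 4.66 and 5.97 in WT basal cells.

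**Figure D2:**
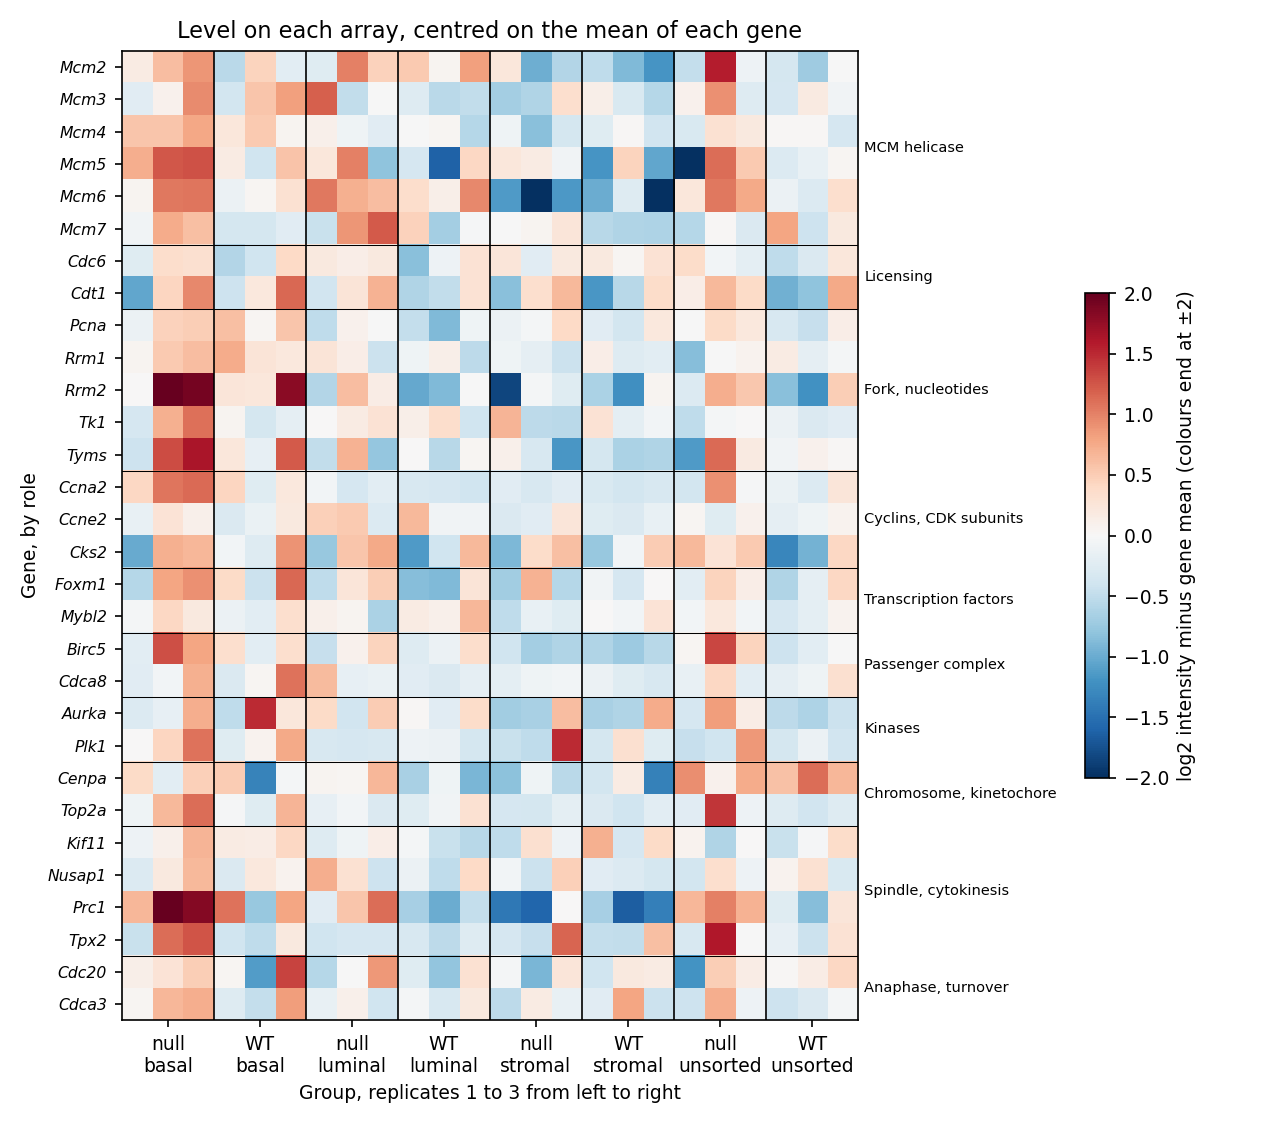
Log2 intensity of the 30 tested genes (rows, by role) on 24 arrays (columns, by group, null left of WT), minus each gene's mean over all arrays, in log2 units with colours ending at 2 below and above the mean. Null basal replicates 2 and 3 are above the gene mean for 27 and 30 genes, and null basal replicate 1 for 12.

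Between sorted populations, every one of these genes that passed an adjusted p of 0.05 was on the epithelial or the basal side. In all, 8 of the 30 genes passed in at least 1 of the 6 comparisons. Single comparisons called between 11.3% and 25.5% of all genes in either direction. The share of all genes passing in at least 1 is thus no lower than 25.5% and is not given here. Among the 30 genes, null basal cells had the most calls. There 6 of 30 genes were higher than in null stromal cells and 0 lower: Mcm6 (log2 change 2.30 ± 0.42, SE, adjusted p = 0.000313), Prc1 (2.58 ± 0.50, adjusted p = 0.000549), Mcm4 (1.05 ± 0.23, adjusted p = 0.00156), Ccna2 (adjusted p = 0.00299), Birc5 (1.18 ± 0.34, adjusted p = 0.0147) and Rrm2 (2.02 ± 0.60, adjusted p = 0.0189). Since Ccna2 was detected on 0 null stromal arrays, it is given as at least 1.64-fold higher, the null basal mean against the higher, on each stromal array, of the probe's own signal and the lowest detected signal. The share of all genes called higher was 10.5%, and 21.4% were called in either direction, against 20% of these genes. All 30 changes were positive, with a median of 0.58, beside 0.07 for all genes. The median was 0.18 with 19 of 30 positive on the positive side of the split, 0.19 without background correction and 0.22 in the second deposited table, and 28 were positive with median scaling. Birc5 lost its call with median scaling (adjusted p = 0.0598), with only the arrays compared (0.0693) and without null basal replicate 2 (adjusted p = 0.113), null basal replicate 3 (0.0572) or null stromal replicate 2 (0.0517), and Rrm2 with only the arrays compared (adjusted p = 0.0812) and without null stromal replicate 1 (0.122) or null basal replicate 2 (0.1) or 3 (0.0931). On the positive side of the split alone, with 1 array in each group, Mcm6, Prc1, Mcm4 and Ccna2 fell short (adjusted p = 0.110, 0.184, 0.254 and 0.352) with changes of 1.19, 2.09, 0.63 and 0.64, as did Birc5 (0.19), and Rrm2 passed (1.84, adjusted p = 0.0197).

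Compared with the null luminal group, null basal cells had 1 of 30 genes higher and 0 lower. This was Ccna2, undetected in luminal cells, for which the bound was at least 1.66-fold (adjusted p = 0.0086). Among all genes 6.07% were called higher and 11.3% in either direction. Mcm4 came next at 0.70 ± 0.23 (adjusted p = 0.0506), and 21 of 30 changes were positive with a median of 0.32 (all genes -0.02). That median was 0.54 with 27 positive on the negative side of the split, 0.07 with 16 positive on the positive side, 0.12 without background correction, 0.14 in the second deposited table and 0.48 with array weights. Ccna2 fell short without null basal replicate 3 (adjusted p = 0.0504), with median scaling (0.0807) and on the negative side (1.38, adjusted p = 0.061) and the positive side of the split (0.47, adjusted p = 0.598). Against null stromal cells, null luminal cells were higher in 2 genes, Mcm6 (2.36 ± 0.42, adjusted p = 0.000203) and Prc1 (1.48 ± 0.50, adjusted p = 0.0326), where 12.8% of all genes were called higher and 25.5% in either direction. The median was 0.24 over the 30 genes and 0.09 over all genes, and 0.09 and 0.04 without background correction. Mcm6 passed under all 18 alternatives computed for it, and Prc1 fell short under 10 of 18, with adjusted p up to 0.441 on the positive side of the split, among them without null stromal replicate 1 (adjusted p = 0.115) or 2 (0.144) and without null luminal replicate 2 (0.0807) or 3 (0.145).

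In WT mice the share of these genes called was below that of all genes in each comparison. The same held for null basal over null luminal and for null luminal over null stromal cells. Pcna was higher in WT basal than in WT luminal cells (0.88 ± 0.26, adjusted p = 0.0256), 1 of 30 genes, where 7.48% of all genes were called higher and 15.2% in either direction. The median change was 0.37 (all genes -0.01), and 24 of 30 were positive. It was 0.62 on the negative side of the split, 0.15 without background correction and 0.17 in the second deposited table. Pcna fell short with median scaling (adjusted p = 0.0934), with only the arrays compared (0.0857), on the negative side (0.368) and without WT luminal replicate 1 (adjusted p = 0.0692) or 2 (0.143) or WT basal replicate 1 (0.0992) or 3 (0.0871). Against WT stromal cells, WT basal cells were higher for Prc1 (1.60 ± 0.50, adjusted p = 0.0284) and Mcm6 (1.23 ± 0.42, adjusted p = 0.0456), where 8.52% of all genes were called higher and 18.1% in either direction, and the median was 0.47 (all genes 0.03). That median was 0.83 on the negative and 0.22 on the positive side of the split and 0.18 without background correction. Prc1 fell short under 10 and Mcm6 under 13 of 18 alternatives, Mcm6 also with a replicate block (adjusted p = 0.0636). Without WT basal replicate 1, WT basal replicate 3 or WT stromal replicate 3, 0 genes passed (adjusted p of Prc1 0.139, 0.113 and 0.0703, of Mcm6 0.067, 0.141 and 0.251). Prc1 also fell short without WT stromal replicate 2 (adjusted p = 0.110), and Mcm6 without WT basal replicate 2 (0.0907) or WT stromal replicate 1 (0.0743).

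WT luminal cells were higher than WT stromal cells for Mcm6 (1.63 ± 0.42, adjusted p = 0.00622) and Mcm2 (1.32 ± 0.44, adjusted p = 0.0335), with 12.4% of all genes called higher and 24.6% in either direction. Here 15 of 30 changes were positive, and the median of 0.00 moved to -0.06 with median scaling, beside 0.07 and -0.01 for all genes, and to 0.14 on the negative side of the split. Mcm2 fell short under 10 of 18 alternatives, among them without WT luminal replicate 1 (adjusted p = 0.0852) or 3 (0.117) or WT stromal replicate 2 (0.0712) or 3 (0.111), and Mcm6 under 3, with only the arrays compared (0.0646), on the positive side (0.0711) and without WT stromal replicate 3 (0.0524). Within the null genotype basal cells had the highest group mean of the 3 sorted populations for 21 of 30 genes, luminal cells for 9 and stromal cells for 0. In WT mice the numbers were 20, 6 and 4. The same numbers were not computed for all genes, so these describe the 30 genes without a background.

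**Figure D3:**
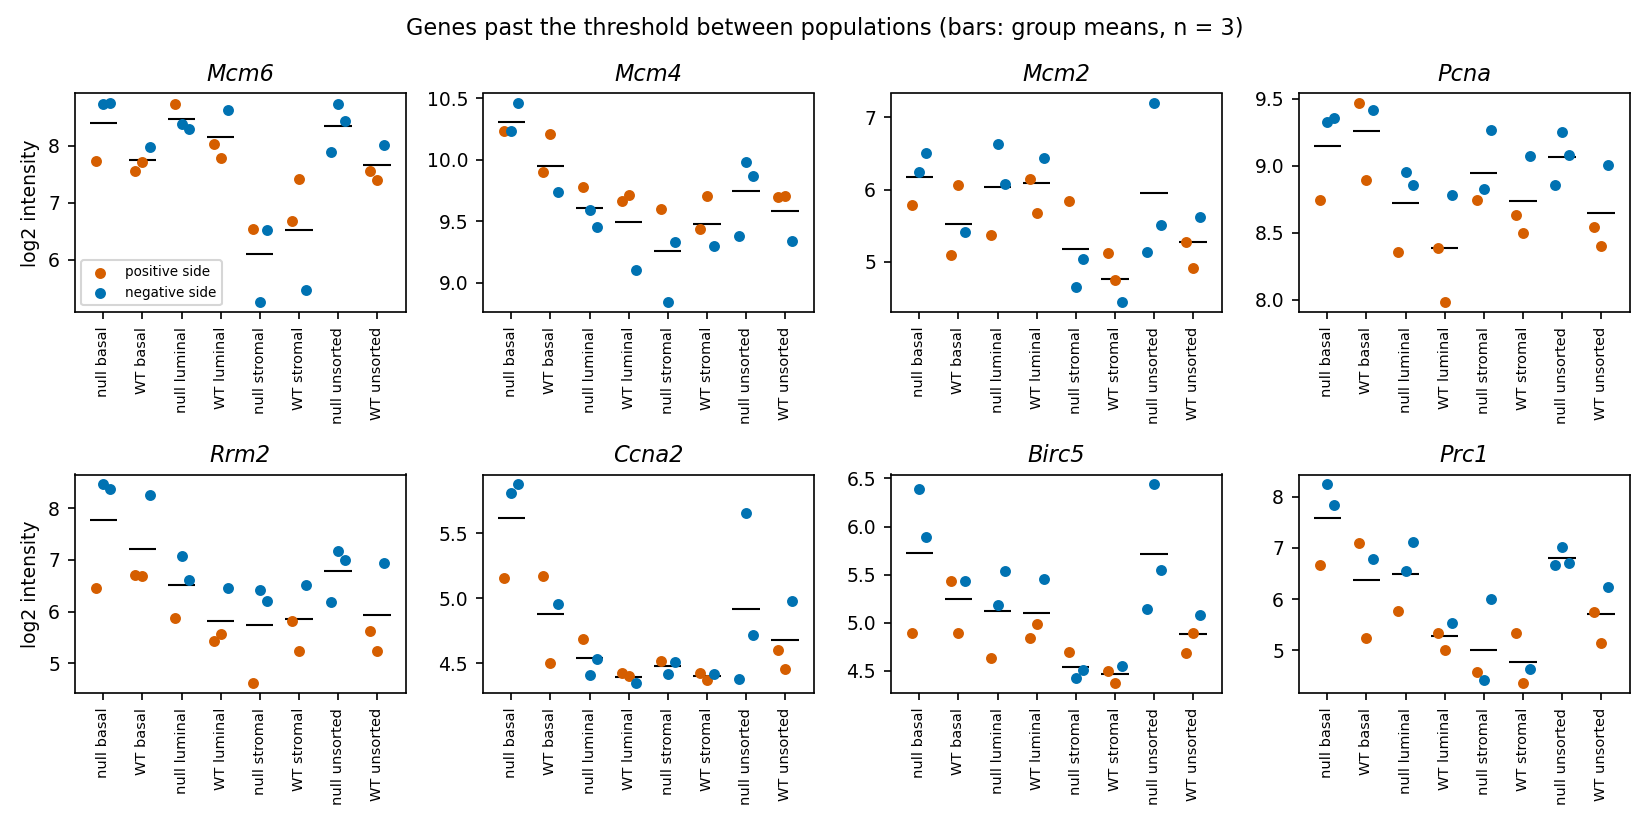
Log2 intensity on each array for the 8 genes that passed in at least 1 comparison of sorted populations, by group (null left of WT), with group means as bars (n = 3) and colours for the sides of the unlabelled split; each panel has its own vertical range. Ccna2 reaches 5.81 and 5.88 on 2 null basal arrays and stays at or below 4.69 on all sorted luminal and stromal arrays.

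Other probes of the same genes were set beside these calls, each tested among all 17878 probes. In null basal over null stromal cells 11 of 49 probes passed (20.1% of all probes), among them all 3 tested probes of Mcm4 (0.97 to 1.06) and 2 of 4 of Mcm6 (2.30 and 1.29). The dimmer probe of Mybl2 passed there (1.93 ± 0.40, adjusted p = 0.00109) and against null luminal cells (1.46 ± 0.40, adjusted p = 0.0195), while the brightest did not (0.49 and 0.35, adjusted p = 0.143 and 0.425). For Cdc20 a probe other than the brightest passed in null basal over null stromal cells (1.02 ± 0.30, adjusted p = 0.017) and yet another in WT basal over WT luminal cells (1.30 ± 0.35, adjusted p = 0.0139). Which transcripts these probes read was not tested.

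Promoters of 33 of the 41 genes are listed by RefSeq (GRCm38.p6), and the 250 bases before the start were searched on both strands for 3 short motifs that cell cycle promoters are known for. These are CCAAT, bound by NF-Y, the E2F forms TTCCCGC or TTGGCGC with their variants TTCGCGC or else TTGCCGC, and the cell cycle homology region (CHR) forms TTTGAA and also TTCGAA, bound by the DREAM and B-Myb complexes. CCAAT occurred in 25 of 33 promoters (75.8%, against 33.8% of 32817 promoters of that length), an E2F form in 8 (24.2%, against 7.89%) and a CHR form in 9 (27.3%, against 17.1%). The promoters were not matched on base composition, and a match describes letters only. The sequences are those of the genes that passed between populations and have an entry, with that of Top2a, whose level followed the mean of the other genes most closely. Capitals mark the motifs on either strand, so ATTGG is CCAAT read on the other strand, and E2F forms of both strands overlap in Mcm6. No sequence is shown for Mcm4 and Ccna2.
Mcm6, chr1:128359706-128359955, minus strand: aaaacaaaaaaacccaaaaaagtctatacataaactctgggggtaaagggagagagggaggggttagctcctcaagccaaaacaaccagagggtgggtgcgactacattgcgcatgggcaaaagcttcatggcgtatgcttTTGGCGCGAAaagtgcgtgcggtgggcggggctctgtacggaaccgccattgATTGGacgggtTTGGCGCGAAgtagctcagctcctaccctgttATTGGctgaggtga
Mcm2, chr6:88898781-88899030, minus strand: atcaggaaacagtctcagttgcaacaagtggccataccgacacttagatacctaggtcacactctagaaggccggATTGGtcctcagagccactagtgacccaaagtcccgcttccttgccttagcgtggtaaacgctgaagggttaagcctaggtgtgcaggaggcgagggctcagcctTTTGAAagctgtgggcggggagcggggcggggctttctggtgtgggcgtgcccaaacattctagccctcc
Rrm2, chr12:24708004-24708253, plus strand: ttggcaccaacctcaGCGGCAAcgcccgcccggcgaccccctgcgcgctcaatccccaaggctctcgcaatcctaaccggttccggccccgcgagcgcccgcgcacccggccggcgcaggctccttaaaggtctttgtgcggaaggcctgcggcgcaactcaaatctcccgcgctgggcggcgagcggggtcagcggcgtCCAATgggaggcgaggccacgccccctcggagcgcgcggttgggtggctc
Pcna, chr2:132253181-132253430, minus strand: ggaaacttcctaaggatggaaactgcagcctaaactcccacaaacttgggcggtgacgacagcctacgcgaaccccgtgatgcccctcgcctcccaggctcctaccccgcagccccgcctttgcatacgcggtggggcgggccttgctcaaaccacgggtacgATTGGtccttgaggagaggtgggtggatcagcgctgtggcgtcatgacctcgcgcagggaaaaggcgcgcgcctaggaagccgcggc
Birc5, chr11:117848987-117849236, plus strand: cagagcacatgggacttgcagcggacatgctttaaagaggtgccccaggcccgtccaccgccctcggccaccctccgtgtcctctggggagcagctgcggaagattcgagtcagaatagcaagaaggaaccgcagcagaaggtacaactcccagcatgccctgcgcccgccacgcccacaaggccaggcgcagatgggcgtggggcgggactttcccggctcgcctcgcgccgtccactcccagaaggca
Prc1, chr7:80294201-80294450, plus strand: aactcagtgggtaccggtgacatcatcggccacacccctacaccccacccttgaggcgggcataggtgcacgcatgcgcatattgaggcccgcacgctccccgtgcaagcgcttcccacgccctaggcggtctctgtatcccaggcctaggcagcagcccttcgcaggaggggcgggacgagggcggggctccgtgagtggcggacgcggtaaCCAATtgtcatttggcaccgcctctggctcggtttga
Top2a, chr11:99024190-99024439, minus strand: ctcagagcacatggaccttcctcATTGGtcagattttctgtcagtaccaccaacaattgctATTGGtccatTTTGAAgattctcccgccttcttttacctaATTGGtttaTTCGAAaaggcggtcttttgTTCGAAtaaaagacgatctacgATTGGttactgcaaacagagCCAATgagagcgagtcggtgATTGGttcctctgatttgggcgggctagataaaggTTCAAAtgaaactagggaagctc
In Mcm6 a CCAAT motif lay 10 bases before the start and the nearest E2F form 37 bases before it, with 4 E2F matches counting overlaps. Top2a held 6 CCAAT and 4 CHR matches, the nearest CHR form 18 bases before the start. Rrm2 and Prc1 had a CCAAT motif 46 and 33 bases before the start, Pcna 83 bases and Mcm2 171 bases before it, and Birc5 had none of these letters in the window.

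In null against WT mice none of these genes passed in any population. With limma over all genes, 0 of 30 passed in basal cells, where 0.837% of all genes were called in either direction, and 2 had an unadjusted p under 0.05, against 1011 of 12552. The largest changes were those of Prc1 (1.21 ± 0.50, adjusted p = 0.474), Mcm5 (0.97 ± 0.66, adjusted p = 0.86) and Tpx2 (0.88 ± 0.50, adjusted p = 0.76). Ccna2 had the smallest p of the 30 (0.74 ± 0.26, adjusted p = 0.331). The median change was 0.35 and 22 of 30 changes were positive, beside a median of 0.00 and 50% positive for all genes. It was 0.10 without background correction, 0.12 in the second deposited table, and 0.55 with 29 positive under array weights. With all 37 genes that have a probe and no filter, 26 were positive, the median was 0.31, and Ccnb1, detected on 2 null basal and 0 WT basal arrays, passed (0.60 ± 0.10, adjusted p = 0.00681). With weights for each array's quality 4 genes passed: Ccna2 (0.87, adjusted p = 0.0213), Tk1 (0.93, adjusted p = 0.0389), Prc1 (1.46, adjusted p = 0.0408) and Tpx2 (1.36, adjusted p = 0.0419). The share of all genes called with these weights is not given here. Whether 4 of 30 is more than that share was not tested. Another tested probe of Tk1 had unweighted means of 4.86 in null basal and 5.02 in WT basal cells, the other direction. No other alternative gave a call in basal cells, and none of those run, array weights included, gave one in luminal, stromal or unsorted cells.

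The null basal and WT basal arrays fall unequally on the sides of the split, and the median change depended on it. With the side as a covariate the median in basal cells was 0.22 with 21 of 30 positive, within the negative side 0.16 with 18 positive, and within the positive side 0.02 with 16 positive. Cell type markers also differed between these groups. The mean level of 5 endothelial markers was 4.65, 5.04 and 4.97 in null basal and 6.80, 6.13 and 4.97 in WT basal cells, and all 5 changes were negative. The mean of 6 fibroblast markers was 6.72, 7.44 and 7.30 in null basal and 8.11, 8.33 and 7.70 in WT basal cells, with all 6 changes negative; 0 of these endothelial and fibroblast markers passed. That of 7 luminal markers was 7.85, 8.56 and 8.42 in null basal and 7.38, 7.86 and 7.39 in WT basal cells. These luminal markers did not move alike, and none passed. Cldn4, Cldn3 and Krt19 rose most (2.00, 1.80 and 1.09), Krt18, Krt8 and Elf5 rose less (0.35, 0.29 and 0.25), and Gata3 fell (-0.65). The part of all these marker differences in the levels of the replication and mitosis genes was not tested.

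In luminal cells 0 of 30 genes passed, with 0.00797% of all genes called and 2 of 30 at an unadjusted p under 0.05 (433 of all genes). Prc1 changed most (1.19 ± 0.50, adjusted p = 1), then Cenpa (0.80 ± 0.41) and Rrm2 (0.70 ± 0.60). The median was 0.28 with 24 of 30 positive, 0.11 without background correction, 0.12 in the second deposited table, 0.16 with the side as a covariate, 0.07 within the negative and 0.17 within the positive side. In stromal cells 0 passed, with 0.0239% of all genes called and 0 at an unadjusted p under 0.05 (558 of all genes). The largest changes there were those of Mcm5 (0.70 ± 0.66), Mcm7 (0.69 ± 0.36, undetected in WT stromal cells, at least 1.19-fold) and Cdt1 (0.50 ± 0.55), all with an adjusted p of 1. The stromal median of 0.05, with 17 of 30 positive, turned to -0.07 with the side as a covariate, to -0.06 with the stricter detection filter and to -0.00 within the positive side, and was 0.02 within the negative side.

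In unsorted cells 0 passed, with 0.279% of all genes called and 2 of 30 at an unadjusted p under 0.05 (1471 of all genes). Cks2 (1.10 ± 0.57, adjusted p = 0.48), Prc1 (1.08 ± 0.50, adjusted p = 0.411) and Rrm2 (0.85 ± 0.60) changed most. The median was 0.24 with 22 positive, 0.10 without background correction, and 0.03 with 15 positive once the side was a covariate. Median scaling moved the median of all genes to 0.17 and that of the 30 genes to 0.41. Endothelial (5 of 5) and fibroblast (6 of 6) markers had negative changes in luminal and in unsorted cells too. In luminal cells, however, the endothelial changes were small except for Tek (-0.77). They were -0.004 for Pecam1, -0.03 for Emcn, -0.04 for Kdr and -0.06 for Cdh5, and Kdr and Cdh5 were undetected in both luminal groups. Unsorted cells also differed in macrophage markers, whose mean was 5.16, 5.20 and 6.31 in null and 7.77, 7.20 and 7.06 in WT mice, with 3 of 5 lower past the threshold. The share of these genes' change that goes with the mixture of cells was not tested.

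Averaged over the 3 sorted populations, 27 of 30 changes were positive with a median of 0.18 (all genes -0.01), and 0 passed, with 0.215% of all genes called and 3 of 30 at an unadjusted p under 0.05 (1066 of all genes). Prc1 (0.88 ± 0.29, adjusted p = 0.37), Mcm5 (0.78 ± 0.38) and Mcm7 (0.69 ± 0.21, adjusted p = 0.302) were largest. With the side as a covariate 19 of 30 were positive with a median of 0.06, and the median was 0.08 without background correction and 0.33 with array weights. A test of whether the change in null mice differed by epithelial population (basal minus luminal) was also made: 0 of 30 genes passed, with 0.167% of all genes called and 1 of 30 at an unadjusted p under 0.05 (542 of all genes). The median of that difference was 0.05, but -0.18 with 12 of 30 positive on the positive side of the split, -0.02 with the stricter filter and 0.25 with 21 positive under array weights. Its extremes were Tpx2 (0.87 ± 0.70), Mcm3 (-0.72 ± 0.59) and Mcm2 (0.71 ± 0.63), so the basal and luminal effects were not shown to differ.

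**Figure D4:**
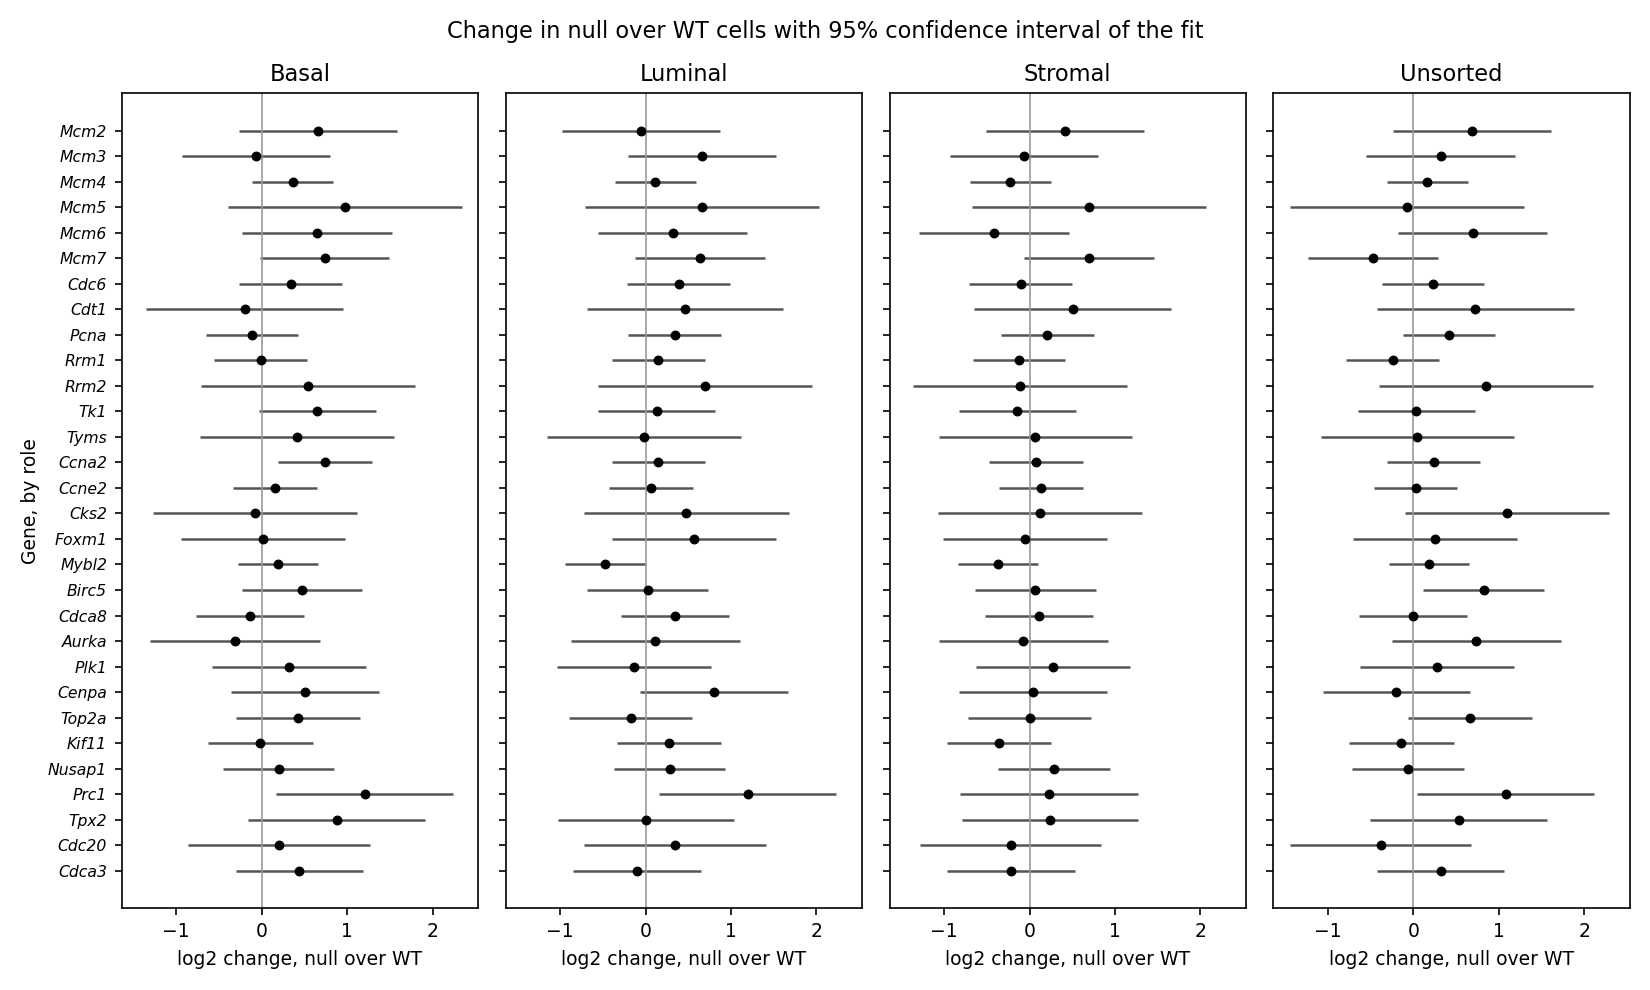
Log2 change in null over WT cells (horizontal axis) for the 30 tested genes (rows, by role), in basal, luminal, stromal and unsorted cells, with bars for the 95% confidence interval of the fit. Points lie to the right of 0 for 22, 24, 17 and 22 genes, and 0 genes pass the adjusted threshold in any panel.

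Other genes of the cell cycle, from lists of 34 replication genes, 56 mitosis genes, 23 regulators of the G1 phase and 7 inhibitors of cyclin-dependent kinases, were set beside them. In null basal over null stromal cells 6 of 30 tested replication genes, 13 of 35 mitosis genes and 2 of 20 G1 regulators were higher with 0 lower, and 2 of 6 inhibitors were lower. These are shares of 20%, 37.1% and 10% called higher, where 10.5% of all genes were called higher and 21.4% in either direction. Stmn1, which encodes the microtubule regulator stathmin, was 9.26, 9.67 and 9.48 in null basal against 7.48, 6.57 and 7.40 in null stromal cells (2.32 ± 0.32, adjusted p = 1.17e-05). The cyclin D1 gene Ccnd1 was higher by 2.62 ± 0.41 (adjusted p = 6.18e-05) and the condensin gene Ncapd2 by 1.40 ± 0.26 (adjusted p = 0.000464). Cdkn1c, the inhibitor p57, was 5.04, 5.81 and 5.74 in null basal against 9.32, 9.92 and 9.35 in null stromal cells (-4.00 ± 0.64, adjusted p = 7.02e-05). None of these groups overlapped.

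Ccnd2, the gene of cyclin D2, was 8.45, 8.66 and 8.44 in null basal against 5.99, 4.80 and 4.50 in null luminal cells (3.42 ± 0.37, adjusted p = 3.02e-06), and 7.87, 8.19 and 7.60 in WT basal against 5.37, 4.85 and 5.01 in WT luminal cells (2.81 ± 0.37, adjusted p = 2.08e-05). Luminal cells had less Ccnd2 than stromal cells (-3.47 ± 0.37 in null and -3.19 ± 0.37 in WT mice, adjusted p = 6.06e-07 and 2.34e-06). Luminal Ccnd1 was higher than stromal Ccnd1 (2.46 ± 0.41 in null and 2.70 ± 0.41 in WT mice, adjusted p = 0.000112 and 4.59e-05). Thus luminal cells carried more Ccnd1 and less Ccnd2 than stroma, and basal cells more Ccnd2 than luminal cells in both genotypes.

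Fewer calls came from the other comparisons. In null basal over null luminal cells Ncapd2 (1.16 ± 0.26, adjusted p = 0.00514), the DNA polymerase gene Pole (at least 1.36-fold, adjusted p = 0.0154) and the E2F partner gene Tfdp1 (0.71 ± 0.19, adjusted p = 0.0154) were higher. In WT basal over WT luminal cells Myc, a transcription factor that promotes growth (0.89 ± 0.19, adjusted p = 0.00205), Stmn1 (1.38 ± 0.32, adjusted p = 0.00435) and the single-strand binding protein gene Rpa2 (1.10 ± 0.31, adjusted p = 0.0176) were higher. In WT basal over WT stromal cells Stmn1 (1.99 ± 0.32, adjusted p = 9.66e-05) and Ccnd1 (2.21 ± 0.41, adjusted p = 0.000498) were higher and the inhibitor genes Cdkn2b (at least 3.81-fold lower, adjusted p = 0.000124) and Cdkn1c (-2.80 ± 0.64, adjusted p = 0.00318) lower. Luminal over stromal cells were lower for Myc (-0.97 ± 0.19 in null and -1.23 ± 0.19 in WT mice, adjusted p = 0.000486 and 4.48e-05) and for Cdkn1c (-3.57 ± 0.64 and -3.53 ± 0.64, adjusted p = 0.000218 and 0.000264).

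None of these other cell cycle genes passed in null against WT cells of any population or in the difference between the basal and luminal effects. Closest in basal cells was Cdc7, the kinase that fires replication origins, at 7.52, 7.88 and 7.69 in null and 5.13, 5.24 and 7.18 in WT basal cells (1.85 ± 0.45, adjusted p = 0.0599). WT basal replicate 3 lay just below the null arrays and the other WT arrays far below them. The inhibitor gene Cdkn2d (-1.08 ± 0.31, adjusted p = 0.137), the cytokinesis gene Cep55 (1.33 ± 0.42, adjusted p = 0.223) and the centromere gene Cenpn (0.72 ± 0.25, adjusted p = 0.295) came next. In basal cells 22 of 30 replication and 27 of 35 mitosis genes had positive changes, with medians of 0.27 and 0.35 (all genes 0.00). Of the inhibitors, 5 of 6 had negative changes, with a median of -0.50. The values of these other lists were not recomputed with the split as a covariate or within its sides. WT basal replicate 3 was the highest array of its group for 40 of 65 of the other replication and mitosis genes.

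After the group means were removed, most of the 30 genes varied together across the 24 arrays, which share their 3 arrays a group and the unlabelled split. The Pearson correlation over 435 pairs of genes had a median of 0.28, and 83.4% of pairs were above 0. With the mean of the others, Top2a (r = 0.83), Tpx2 (0.81), Rrm2 (0.77) and Pcna (0.75) correlated most, and Mcm4 (-0.07) and Cenpa (-0.21) least. Of genes outside the list, those most like the mean of the 30 were H1f5, a linker histone gene (r = 0.91), Kntc1, a kinetochore gene (0.88), Slc7a11, a cystine transporter gene (0.87), the cytokinesis genes Ect2 (0.86) and Cep55 (0.86), Aqp9, a water channel gene (0.85), Nanos1, Alyref, the histone gene H2ac22 (0.85 each) and Uhrf1, which maintains DNA methylation after replication (0.85). The median over all genes was -0.02. These correlations describe these arrays and were not tested.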

How the data were processed

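RNA of 24 samples in 8 groups was measured on Illumina arrays. Per the file headers, the authors deposited probe intensity on a linear scale, without normalization, and a detection p-value beside each intensity; the p-values are multiples of 1 over 798, as ranks against that many negative controls would give. The same arrays are also in another deposited table of linear intensity, read as normalized from its near-equal distributions, which was an alternative. The software that made either table is not given in the sources used here.

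Intensities were background-corrected, quantile-normalized and put on a log2 scale from the deposited values with neqc (offset 16) of limma 3.58.1 in R 4.3.3. Probes detected (detection p under 0.05) on at least 3 arrays were kept, and the brightest kept probe stood for a gene; a gene counts as undetected in a group, for a bound on its fold change, only if all its probes are. Symbols of genes outside the list were updated through RefSeq. The 8 group means were estimated over all 24 arrays by lmFit and eBayes for 12552 genes, with two-sided p-values adjusted by Benjamini-Hochberg over all genes of a comparison and a threshold of 0.05. Fits were tested on simulated data. The 41 genes, their roles, the other cell cycle lists and the markers were chosen with earlier results of these data known, and no list was tested as a set. Full statistics are given for the genes of the list that passed, at most 10 a comparison. Where none passed, they are given for the 3 with the largest change. They are also given for at most 4 other cell cycle genes a comparison by adjusted p, and for the 10 genes most like the mean. Ccna2 in basal cells, Ccnb1 and the genes called with array weights were named after their values were seen. So were the other probes of Mybl2, Cdc20 and Tk1 and the single cell type markers. Each gene's level in every group is given by its own scale, and levels of different probes are not compared. Which arrays shared a slide is not given in the sources used here. Precision is limited by the number of arrays, with a median SE of 0.301 for log2 changes. Samples of the same replicate number were not treated as pairs. The alternatives were other background corrections, scalings, filters and probe rules, array weights, a replicate block, the unlabelled split as a covariate or within its sides, and leaving out each array.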

Additional observations from a re-analysis of the deposited data

How the results depend on the processing

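No gene call between populations changed direction under any alternative: of 252 recomputed changes of called genes, 181 stayed past the threshold, 71 fell short and 0 reversed. Of 233 recomputed counts 172 stayed within 1.5 times. Analysis on the positive side of the split was chosen after the data were seen, and the cause of a changed count was not tested.

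Genes passing in null basal over null luminal cells (1 as reported) numbered 8 with array weights, 4 without a filter, 3 with the mean over probes, the replicate block or the split as a covariate, 2 without background correction or in the second table, and 0 with median scaling or on the positive side. In null basal over null stromal cells (6) there were 13 with array weights and 1 on the positive side. In null luminal over null stromal cells (2) there was 1 with median scaling, without background correction, without a filter, with only the arrays compared, on the positive side or in the second table. In WT basal over WT luminal cells (1) there were 3 with the replicate block or the covariate, 2 with the mean over probes or on the positive side, and 0 with median scaling, only the arrays compared or the negative side. In WT basal over WT stromal cells (2) there were 5 with the covariate, 4 with the replicate block, 1 with median scaling or on either side, and 0 without background correction, without a filter, with only the arrays compared or in the second table. In WT luminal over WT stromal cells (2) there was 1 in those same 4 settings, with median scaling and on the negative side, and 0 on the positive side. In null over WT basal cells (0) there were 4 with array weights and 1 without a filter. Unsorted cells gave no value on the positive side, which holds 0 null unsorted arrays. The share of all genes called under each setting is not given here. A changed count may therefore hold for genes in general and is not read as a result about these genes.

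Leaving out 1 array gave 0 to 1, 4 to 9, and 1 to 3 genes in the null comparisons in the order above, 0 to 2, 0 to 1 and 0 to 2 in the WT ones, and 0 to 0 in every comparison of genotypes and in the difference of effects; a group left with 1 array on a side was assumed to vary like the others. Whether equal replicate numbers mark shared animals is not given in the labels, and the arrays were not treated as paired: of 36 pairs of same-numbered arrays of a genotype, 24 correlated over 0.1 (lowest -0.09), with a median of 0.20 against -0.09 for other numbers, and 19 of 24 arrays correlated best with their own number, a hint from the data. With the replicate block 0 genes passed between genotypes, and Mcm6 in WT basal over WT stromal cells fell short (adjusted p = 0.0636) while the count there was 4. Medians over the genes were smaller without background correction and in the second table in all 4 comparisons of genotypes within a population. Probes near background limit Ccna2, Birc5, Mcm7, Tpx2 and Top2a, and how far this shrinks or widens their changes in log2 units was not tested.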
